A study of Mus musculus with 32 samples.

Results

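Translational efficiency, the ratio of polysome-associated to cytosolic RNA of a gene, was compared between mouse embryonic fibroblasts (MEFs, cultured connective tissue cells of the embryo) kept in thapsigargin for 16 h and those kept in it for 1 h. Thapsigargin inhibits the pump that loads calcium into the endoplasmic reticulum (ER), and the loss of calcium brings about ER stress. The members are the 16 libraries of these conditions among the 32 of the series, chosen by the names in the labels: 4 samples at 16 h and 4 at 1 h, each with a library of polysome RNA (mRNAs on more than 4 ribosomes) and one of cytosolic RNA. The remaining libraries, untreated controls at 0 h and cells at 16 h with a PERK inhibitor for the last 4 h, entered the fit, where they shared in the estimate of spread, the filter and the scaling, and control levels are printed for orientation. All groups were MEFs without a named strain, genotype or clone, grown in serum-containing medium, and the labels do not say that the 4 samples of a condition were separate cultures or isolates. The p-values are therefore relative to a spread that may be technical. The sources used here give neither the dose of thapsigargin nor the solvent given to the controls.

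Under ER stress the kinase PERK phosphorylates the initiation factor eIF2, which slows its recycling by the exchange factor eIF2B and lowers the start of protein synthesis on most mRNAs. A few mRNAs whose leaders (5′ untranslated regions) hold short upstream open reading frames, among them Atf4 and Ppp1r15a, are then read better than before. Ppp1r15a encodes GADD34, which brings a phosphatase to eIF2, and protein synthesis recovers in part as stress becomes chronic. A change between the early and the late time in the share of an mRNA on heavy polysomes is what this comparison addresses. Every library was scaled to its own content (TMM-adjusted total), so a recovery shared by all mRNAs is not visible and every value is relative to the other mRNAs.

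Start codon windows of Atf4, 2 of them in its leader, and of the Ppp1r15a coding sequence are shown because the ratios of both mRNAs were above those of controls at both times and only that of Ppp1r15a was called between them. Atf4 lies on chromosome 15 from 80255184 to 80257541, plus strand, and Ppp1r15a on chromosome 7 from 45522916 to 45526268, minus strand (GRCm38, the mm10 build). In the GENCODE vM21 transcripts used, the Atf4 leader has 594 nt with 3 ATGs and the Ppp1r15a leader 764 nt with 7 ATGs. Each 22-base window below is in the sense of the mRNA and has the start codon in capitals.
Atf4 leader ATG 2, which opens a frame of 12 nt: gcggccaccATGgcgtattaga
Atf4 leader ATG 3, whose frame of 180 nt overlaps the coding sequence: gcctaagccATGgcgctcttca
Atf4 coding start: ccccacaacATGaccgagatga
Ppp1r15a coding start: cccagacacATGgccccgagcc
Frame lengths include the stop codon. The last leader ATG of Atf4 lies 97 nt before the coding start, and its frame runs past that start.

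Libraries at 16 h held 33.36 to 36.22 M counts (polysome) and 29.47 to 34.97 M (cytosolic), and those at 1 h 21.16 to 34.68 M and 19.32 to 34.76 M. No pair of libraries agreed within sampling noise. The 4 samples at 16 h did not spread evenly: the deviations of samples 1 and 3 from the group mean of log2 ratios had a correlation over genes of -0.70, and those of samples 1 and 2 one of -0.55, while samples 1 and 4 had 0.14. Replication-dependent histone mRNAs, which mostly lack a poly(A) tail, showed the split of samples 1 and 4 from 2 and 3: their median log2 ratio was 0.49, -1.67, -1.79 and 0.21 in samples 1 to 4 at 16 h, against -0.99, -0.58, -0.50 and -1.19 at 1 h, and none of the 11 tested passed. What separates these samples was not tested. All 13 fibroblast markers were detected, and whether cell identity changed was not tested. Their summed level in cytosolic RNA was 5420 to 6210 CPM at 16 h against 20900 to 25300 CPM at 1 h. CPM are counts scaled to the library total in these sums and to the TMM-adjusted library total elsewhere. The 9 epithelial markers summed to 0.286 to 0.801 CPM at 16 h and 2.12 to 2.76 CPM at 1 h. Markers of blood, endothelial, neural and muscle cells each stayed at or under 61.2 CPM in sum.

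Of 12561 genes tested, 3527 (28.1%) differed in translational efficiency at a Benjamini-Hochberg adjusted p under 0.05 (quasi-likelihood test of edgeR). The ratio was higher at 16 h for 1824 genes (14.5%) and lower for 1703 (13.6%). Most changes were small: 35 of these ratios were higher by 2-fold or more and 78 lower by as much, and the central 90% of log2 changes ran from -0.68 to 0.59. The 4 ratios at 16 h lay entirely to one side of the 4 at 1 h for 3508 genes (27.9%), and 2998 of the called genes were among these. With the 16 libraries of the comparison alone, 64.4% of 3349 calls were higher, against 51.7% in the fit as reported, and the median log2 change of all genes was 0.05 there.

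Both kinds of RNA had changed widely between the times, and the ratio records only the difference. Polysome RNA was called for 78.5% of 12065 genes (38.4% higher at 16 h, 40% lower) and cytosolic RNA for 75.3% of 12366 (37.7% higher, 37.7% lower). Among genes with a higher ratio at 16 h, 448 (24.6%) had more polysome RNA without more cytosolic RNA, 737 (40.4%) had more of both, 432 (23.7%) had less of both, and in 191 (10.5%) cytosolic RNA was lower while polysome RNA was not called. Among genes with a lower ratio, 478 (28.1%) had less polysome RNA without less cytosolic RNA, 588 (34.5%) had less of both, 334 (19.6%) had more of both, and in 296 (17.4%) cytosolic RNA was higher while polysome RNA was not called. A higher ratio thus went with a gain of the mRNA on heavy polysomes in some genes and with a smaller loss in others. An alternative measure, the analysis of partial variance, uses the cytosolic level as a covariate in place of dividing by it. It called 7463 genes, of which 2053 were shared calls of the same direction and 242 had the opposite direction. The slope it fitted had a median of -0.0255, and its values lay nearer to the change in polysome RNA (median absolute difference 0.138) than to the change in the ratio (0.509). Called genes among those named, and lists, that it turned in direction are given here or in the closing section. A turn is a change of sign of the estimate, whether or not that estimate passed the threshold.

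**Figure D1:**
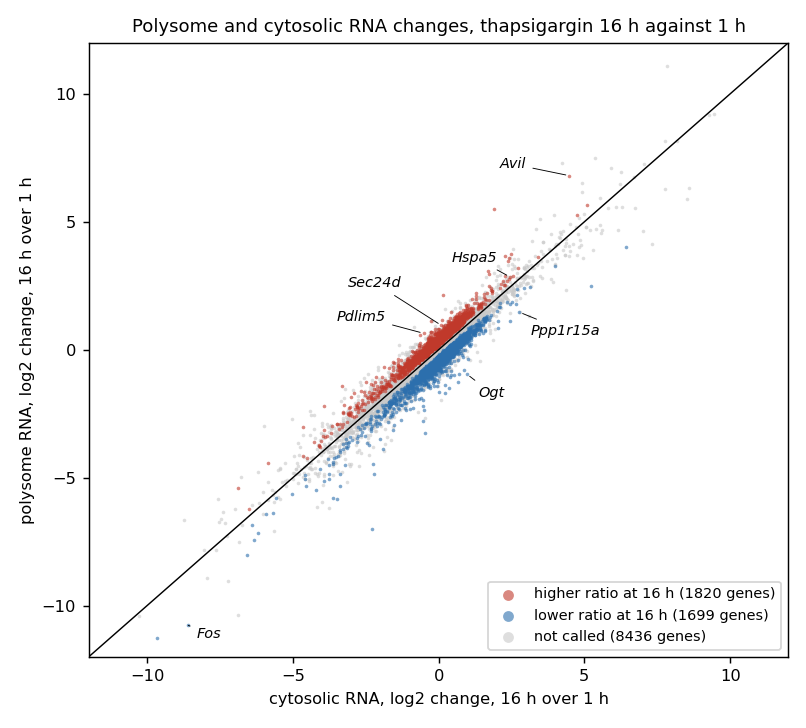
Log2 change in cytosolic RNA (horizontal axis) and in polysome RNA (vertical axis), thapsigargin 16 h over 1 h, 1 point per gene measured in both, coloured by the call in translational efficiency; the line marks equal change. Called genes flank the line along its whole length, with Avil and Hspa5 among those above it and Fos, Ogt and Ppp1r15a below.

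Among the 14 genes of the ER stress panel, 4 had a higher ratio at 16 h and 1 a lower one, while cytosolic RNA was called higher for 11 of them and polysome RNA for 12. Without sample 1 at 16 h 2 were lower. The gene with the lower ratio was Ppp1r15a, the inducible eIF2 phosphatase subunit. Its polysome RNA was 1195, 1104, 1164 and 1229 CPM at 16 h, against 416.8, 369.4, 392.2 and 374.2 CPM at 1 h. Its cytosolic RNA was 737, 773, 812 and 816 CPM at 16 h, against 117.5, 107.3, 107.3 and 95.1 CPM at 1 h. Both rose, but the mRNA pool rose more, so that the log2 ratios were 0.70, 0.51, 0.52 and 0.59 at 16 h, against 1.82, 1.78, 1.87 and 1.98 at 1 h. The groups stood far apart, and the ratio fell 2.43-fold (log2 change -1.28 ± 0.0741 SE, adjusted p = 8.55e-09 by edgeR's quasi-likelihood test, n = 4 samples each). In control cells the mean log2 ratio had been -0.84, so the level at 16 h lay between those of the control and of 1 h. In the analysis of partial variance the direction turned, with a log2 change of 0.735 that did not pass the threshold. Ppp1r15a passed in 16 of 17 alternatives.

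Atf4, the transcription factor at the head of this response, had log2 ratios of 0.52, 0.55, 0.54 and 0.54 at 16 h and of 0.65, 0.58, 0.66 and 0.65 at 1 h. The ratios did not overlap, but the difference was small and was not called (-0.10 ± 0.0504 SE on the log2 scale, adjusted p = 0.164, edgeR). The control mean was -1.93. Ddit3, which encodes CHOP and also has a regulatory upstream frame, was 0.06 ± 0.2 at 16 h and 0.23 ± 0.0742 at 1 h (SD, n = 4 each), with a control mean of -1.77, and was not called (log2 change -0.17 ± 0.0918 SE). It passed without sample 1 at 16 h and, with the opposite direction, in the analysis of partial variance (1.46). Both mRNAs thus had mean ratios at 16 h that lay well above those of control cells.

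The panel genes with a higher ratio at 16 h were Hspa5, Herpud1, Xbp1 and Atf3. Hspa5, which encodes the chaperone BiP, had polysome RNA of 46000 to 50310 CPM at 16 h and 5901 to 6463 CPM at 1 h. Its log2 ratios were 1.48, 1.78, 1.74 and 1.58 at 16 h and 1.32, 1.13, 1.26 and 1.20 at 1 h, without overlap, a rise of 1.34-fold (log2 change 0.42 ± 0.0918 SE). Herpud1, a component of ER-associated degradation, had log2 ratios of 1.00, 0.88, 0.90 and 0.96 at 16 h and 0.47, 0.44, 0.47 and 0.49 at 1 h. The ratio of Herpud1 rose 1.38-fold (log2 change 0.47 ± 0.0504 SE), with a control mean of 2.11. Xbp1, the transcription factor spliced by the stress sensor IRE1, had 0.04, 0.29, 0.34 and 0.15 at 16 h and -0.26, -0.39, -0.37 and -0.32 at 1 h. Its 2 sets did not overlap either, and its ratio rose 1.45-fold. The ratio of Atf3, a transcription factor induced by many stresses, rose by 0.32 on the log2 scale.

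The other panel genes were not called. Eif2ak3, which encodes PERK, had a mean log2 ratio of 0.54 at 16 h and 0.47 at 1 h, and Ppp1r15b, the constitutive eIF2 phosphatase subunit, 0.56 and 0.49. Asns, which makes asparagine, had 1.28 and 1.17, the cystine transporter gene Slc7a11 0.72 and 0.76, and the pseudokinase gene Trib3 0.68 and 0.55. Chac1, a glutathione-degrading enzyme, had -0.33 and -0.35, and Dnajb9, an ER co-chaperone, -0.25 and -0.52. In all 7 the samples of the times overlapped, Trib3 and Chac1 showing the split of the 16 h samples, with sample 1 at 1.14 and 0.03 and sample 3 at 0.28 and -0.66. Dnajb9 passed without sample 1 at 16 h, with the replicate block, with the 16 libraries alone, with a correction for coding length and in the analysis of partial variance. Eif2ak3, Asns, Trib3 and Chac1 passed in the analysis of partial variance alone, each as higher at 16 h.

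**Figure D2:**
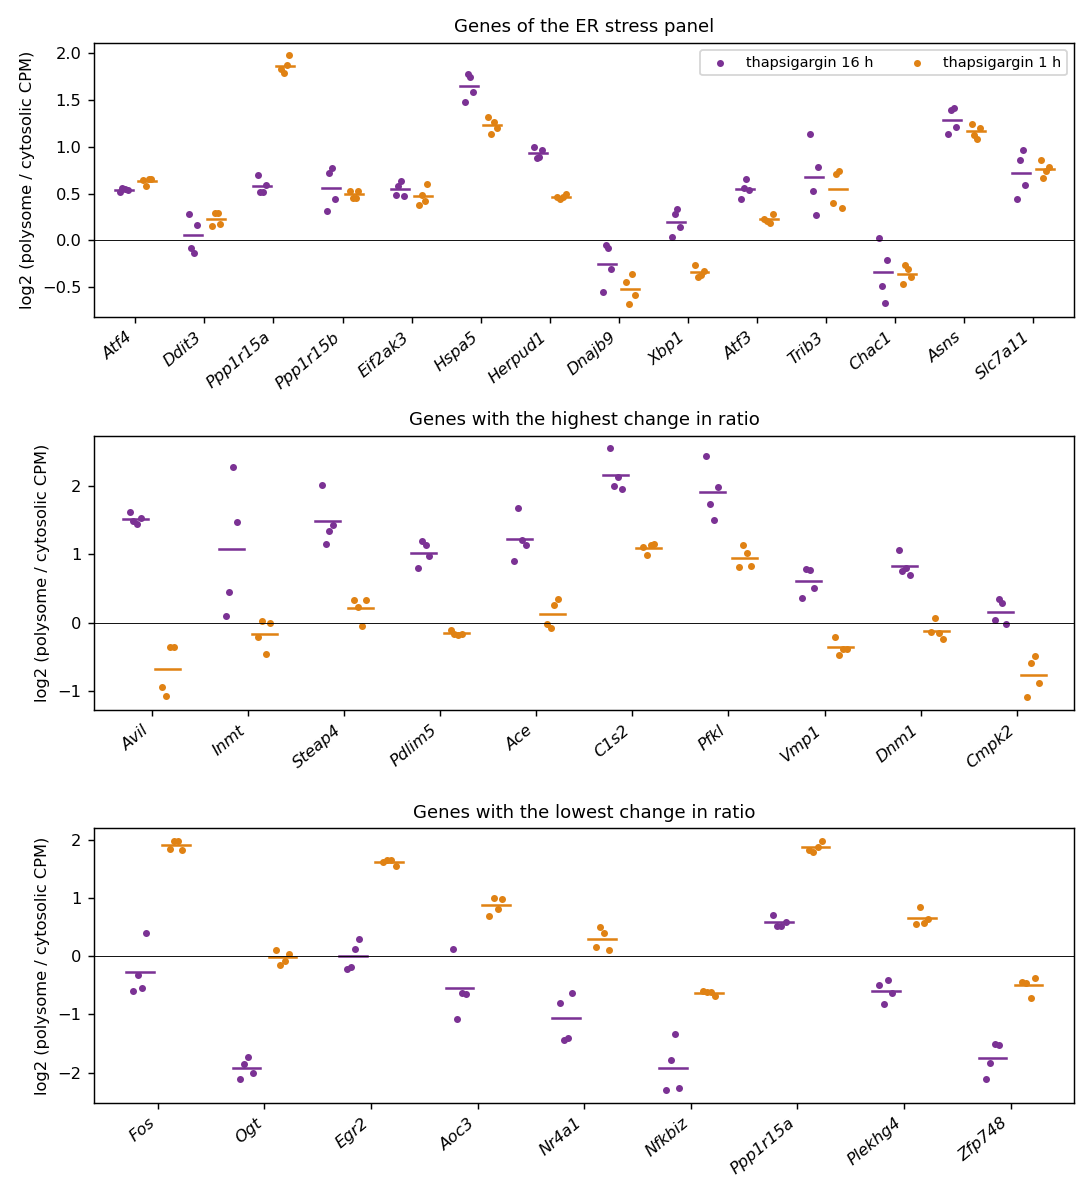
Log2 ratio of polysome to cytosolic CPM in each of the 4 samples at thapsigargin 16 h (purple, left of each gene) and 1 h (orange, right), with bars at the means, for the ER stress panel and for the named genes among the highest and lowest changes. Ppp1r15a is the panel gene whose samples at 16 h all lie far below those at 1 h.

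The highest and lowest changes among genes with a mean of at least 5 CPM and ratios that did not overlap were chosen on this comparison and are given as values. Avil, which encodes the actin-binding protein advillin, stood highest (chromosome 10 from 127000709 to 127020994). It had 76.1, 72.4, 71.2 and 74.8 CPM on polysomes at 16 h, against 0.644, 0.577, 0.772 and 0.366 CPM at 1 h. In cytosolic RNA it had 24.7 to 26.3 CPM at 16 h and 0.486 to 1.29 CPM at 1 h. Its log2 change in ratio was 2.32 ± 0.198 SE, 5.01-fold, with a mean log2 ratio of 1.52 at 16 h and of -0.68 at 1 h, where levels were very low.

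Pdlim5, which encodes a scaffold protein of actin structures (chromosome 3 from 142239590 to 142395696), was measured at higher levels at both times. Its polysome RNA was 199.5, 212.1, 212.7 and 197.1 CPM at 16 h, against 117.2, 123.1, 116.3 and 125.5 CPM at 1 h. Its cytosolic RNA was 93.02 to 99.95 CPM in samples 2 to 4 at 16 h and higher in sample 1, against 126.5 to 140.2 CPM at 1 h, without overlap. The 2 kinds of RNA moved in opposite directions, and the ratio rose 2.26-fold, to 1.02 ± 0.176 at 16 h against -0.15 ± 0.0302 at 1 h (log2, SD, n = 4 each). Vmp1, an ER protein needed for autophagosome formation (1.95-fold), also had more polysome RNA and less cytosolic RNA at 16 h. Pfkl, the liver-type phosphofructokinase of glycolysis (1.96-fold), had more polysome RNA, while its cytosolic RNA was not called. Cmpk2, a mitochondrial nucleotide kinase induced by interferon, rose 1.92-fold with more of both RNAs.

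In the other genes of the highest 10, both RNAs were lower at 16 h, and the cytosolic RNA more so. These were Ace, the angiotensin-converting enzyme (2.16-fold higher ratio), the complement protease gene C1s2 (2.13-fold), Dnm1, the membrane-fission GTPase dynamin 1 (1.93-fold), the metalloreductase gene Steap4 (2.75-fold) and the methyltransferase gene Inmt (2.84-fold). At 16 h Steap4 had 0.151 to 0.315 CPM in cytosolic RNA, against 12.2 to 13.8 CPM at 1 h, so that the folds of Steap4 and Inmt rest on few counts at 16 h. Inmt had 0 to 0.151 CPM in cytosolic RNA at 16 h against 10.7 to 13.6 CPM at 1 h, and it passed the test in 7 of 17 alternatives, once with the opposite direction. The analysis of partial variance turned the direction of these 5 genes.

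Among the genes of the lowest changes, Ogt moved against its own mRNA level. It encodes O-GlcNAc transferase, which attaches N-acetylglucosamine to proteins (chromosome X from 101640060 to 101684351). Its polysome RNA was 68.5, 72.8, 77.2 and 67.6 CPM at 16 h, against 130.2, 122.8, 117.4 and 135.9 CPM at 1 h. Its cytosolic RNA was 294.1, 261.8, 255.0 and 271.4 CPM at 16 h, against 121.2, 135.8, 124.1 and 132.3 CPM at 1 h. The cytosolic pool was about as much larger as the polysome pool was smaller, and the log2 ratios, -2.101, -1.845, -1.724 and -2.004 at 16 h against 0.10, -0.14, -0.08 and 0.04 at 1 h, fell 3.73-fold (log2 change -1.90 ± 0.0905 SE). The control mean was -2.96.

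Immediate early transcription factor genes were also low: Fos (4.49-fold), Egr2 (3.01-fold) and Nr4a1 (2.62-fold) had lower ratios at 16 h. Fos had 0.199 to 0.541 CPM on polysomes at 16 h against 563 to 661 CPM at 1 h, and Egr2 0.199 to 0.304 CPM against 524 to 577 CPM, so that their ratios at 16 h rest on few counts. Egr2 turned in the analysis of partial variance. Aoc3, an amine oxidase (2.76-fold), Nfkbiz, a nuclear regulator of NF-kB (2.46-fold), Plekhg4, a guanine nucleotide exchange factor (2.40-fold), and Zfp748, a zinc finger gene (2.39-fold), also stood among the lowest 10, as did Ppp1r15a. On polysomes at 16 h Aoc3 had 0.617 to 0.897 CPM and Plekhg4 0.617 to 1.02 CPM, so that their ratios also rest on few counts there.

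Lists of genes with related roles were described by their called members and medians, beside 14.5% of all genes with a higher ratio, 13.6% with a lower one and a median log2 change of 0.0024. The lists overlap in part: Ppp1r15a, Atf4 and Ddit3, for example, stand both in the panel and among mRNAs with regulatory upstream frames. Of 30 such mRNAs tested, 3 had a higher ratio at 16 h and 6 a lower one (median log2 change 0.02). Their median log2 ratio was 0.41, 0.42, 0.38 and 0.39 in the samples at 16 h and 0.41, 0.42, 0.42 and 0.36 at 1 h, against -0.49 to -0.44 in controls. The medians overlapped between the times of stress, while members moved either way. Slc35a4, a Golgi transporter gene, fell 1.60-fold to a mean log2 ratio of -0.13 at 16 h, against 0.54 at 1 h. Odc1, the first enzyme of polyamine synthesis, fell 1.33-fold. Eif5, which promotes GTP hydrolysis by eIF2, rose 1.60-fold, its log2 ratios being 0.05, 0.47, 0.64 and 0.25 at 16 h against -0.19, -0.46, -0.30 and -0.34 at 1 h.

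Genes of the eIF2 pathway other than Ppp1r15a leaned upward. Of 21 genes for eIF2, eIF2B, the eIF2 kinases and phosphatase subunits, 7 had a higher ratio and 1, Ppp1r15a, a lower one (median log2 change 0.18). Eif2s1, which encodes the eIF2 subunit that is phosphorylated, rose 1.37-fold, and Eif2ak2, the RNA-activated kinase PKR, 1.54-fold. Of 12 tested subunits of eIF3, the scaffold of the initiation complex, 7 had a higher ratio and none a lower one (median 0.29), with Eif3l at 1.33-fold and Eif3b at 1.29-fold. Over these subunits the log2 ratio had a median of 1.48 in controls, 0.09 at 1 h and 0.26 at 16 h. Of 19 genes of the cap-binding complex eIF4F and its regulators, 2 rose and 4 fell (median -0.09). The poly(A)-binding protein gene Pabpc1 fell 1.64-fold and Eif4ebp2, an eIF4E-binding repressor, 1.41-fold, while Pdcd4, an eIF4A inhibitor, rose 1.399-fold. This list's lower count was 2 without sample 2 at 16 h or without sample 1, 2 or 4 at 1 h, and its median was 0.0864 in the analysis of partial variance. Eif4ebp2 did not pass with a correction for coding length.

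Ribosomal protein mRNAs, which carry a pyrimidine tract at their start that answers to mTOR signalling, did not share in this. Of 77 cytosolic ribosomal protein genes, none had a higher ratio at 16 h and 17 had a lower one, with a median log2 change of -0.195. Their median log2 ratio was -1.01, -1.23, -1.36 and -1.11 in the samples at 16 h and -1.01, -1.03, -0.98 and -0.95 at 1 h, so that sample 1 at 16 h was level with sample 1 at 1 h and the others were lower. Rpl11 and Rpl31 each fell 1.36-fold. In the analysis of partial variance the median of the list was 0.213. These are short mRNAs, with a median coding length of 456 nt against 1398 nt over all genes tested. With a correction for coding length 5 members fell, 3 rose and the median was -0.03, and Rpl31 was not called. Without sample 2 at 16 h 10 fell, and without sample 1 at 1 h 11 fell. Many ribosomal protein genes have processed copies in the genome, and how reads shared with these were counted is not given in the sources used here.

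Of 22 elongation factor and other mRNAs with such a start, 5 rose and 1, Pabpc1, fell (median 0.09), and 9 rose without sample 1 at 16 h. Ybx1, an RNA-binding protein gene, rose 1.43-fold. Of 55 mitochondrial ribosomal protein genes 13 rose and 7 fell (median 0.0081), Mrpl19 rising 1.41-fold and Mrps21 falling 1.48-fold. Of 60 nuclear genes of the respiratory chain 11 rose and 5 fell (median 0.0134). Their sample medians were -0.48, -0.79, -0.90 and -0.47 at 16 h, samples 1 and 4 above and samples 2 and 3 below all 4 at 1 h (-0.65, -0.72, -0.59 and -0.67). The ATP synthase genes Atp5a1 (1.47-fold) and Atp5b (1.404-fold) and the complex I gene Ndufa10 (1.54-fold) were among those that rose, and Atp5a1 turned in the analysis of partial variance. With a correction for coding length 1 respiratory gene fell, and the median was 0.184. Of 15 mitochondrial chaperones and proteases 4 rose, among them Trap1 (1.32-fold), and none fell. Their count was 2 without sample 2 or 3 at 16 h or without sample 2, 3 or 4 at 1 h.

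Metabolic enzymes and the proteasome held the 3 lists with the largest shares of higher ratios among those with over 2 tested members. Of 24 genes of cholesterol synthesis and the SREBP system, 17 (70.8%) had a higher ratio at 16 h and none a lower one, with a median log2 change of 0.41. Their median log2 ratio was 0.58, 0.72, 0.86 and 0.68 at 16 h, against 0.36, 0.28, 0.26 and 0.36 at 1 h, without overlap, and 0.99 to 1.26 in controls. Fdft1, the squalene synthase (chromosome 14 from 63145150 to 63179578), had log2 ratios of 0.60, 0.73, 0.89 and 0.69 at 16 h and of 0.16, 0.11, 0.06 and 0.24 at 1 h and rose 1.499-fold. The sterol oxidase Msmo1 rose 1.66-fold, the 3-ketosteroid reductase Hsd17b7 1.60-fold and the squalene epoxidase Sqle 1.34-fold. Cytosolic RNA of 21 of the 24 genes was lower at 16 h, by a median log2 change of -0.98, and polysome RNA of 17 was lower, by -0.54. The analysis of partial variance gave a list median of -0.449 and turned Hsd17b7 and Sqle, though not Fdft1 and Msmo1.

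Glycolysis showed a like pattern: 13 of 19 genes (68.4%) had a higher ratio and 1 a lower one, with a median log2 change of 0.39. The samples' medians were 1.15, 1.18, 1.15 and 1.17 at 16 h and 0.81, 0.68, 0.70 and 0.83 at 1 h, and 13 of the 19 had less cytosolic RNA at 16 h. Besides Pfkl, the glucose phosphate isomerase Gpi1 rose 1.47-fold, the phosphoglycerate mutase Pgam1 1.32-fold and the lactate dehydrogenase Ldha 1.29-fold. The list median was -0.07 in the analysis of partial variance, and no member was lower with the 16 libraries alone or without any 1 of the 8 samples other than sample 1 at 1 h. Among 31 proteasome subunits, 19 (61.3%) had a higher ratio and none a lower one (median 0.29), but cytosolic RNA of these genes was called higher for 8 and lower for 9. The 20S subunit gene Psma7 rose 1.38-fold, and the 19S genes Psmd1 and Psmc2 rose 1.60-fold and 1.42-fold. Psmd1 had 365.5, 367.0, 401.9 and 349.7 CPM on polysomes at 16 h and 243.6, 219.7, 210.4 and 233.9 CPM at 1 h. Its cytosolic RNA, 128.2 to 153.0 CPM at 16 h and 125.9 to 145.4 CPM at 1 h, overlapped between the times. The median log2 ratio of the proteasome list was 1.66 in controls, 0.39 at 1 h and 0.48 at 16 h. The sample medians overlapped, with 0.40, 0.49, 0.55 and 0.55 at 16 h and 0.41, 0.32, 0.39 and 0.45 at 1 h.

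**Figure D3:**
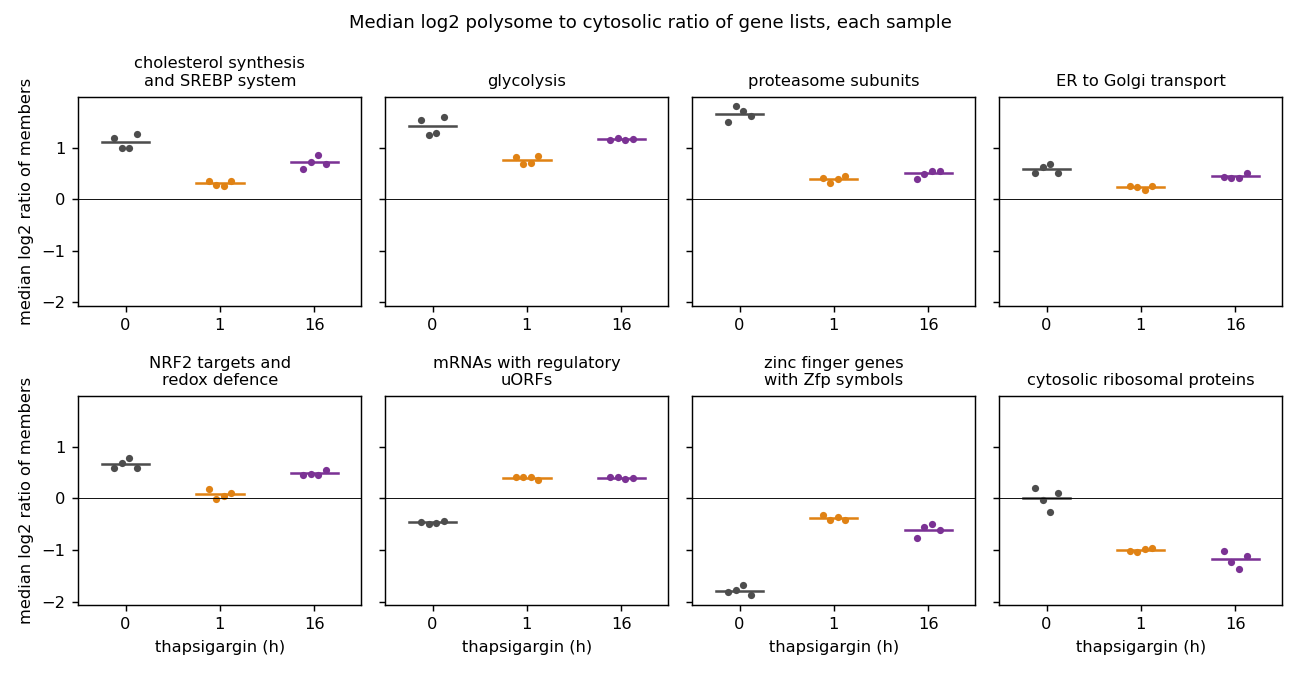
Median log2 ratio of polysome to cytosolic CPM over the members of 8 gene lists in each of 4 samples (points) at 0, 1 and 16 h of thapsigargin, with bars at the means. Cholesterol synthesis, glycolysis, ER to Golgi transport and NRF2 targets lie higher at 16 h than at 1 h in every sample. The mRNAs with regulatory upstream open reading frames (uORFs) overlap between 1 and 16 h, and Zfp genes lie lower at 16 h than at 1 h and above control.

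Of 27 NRF2 targets and genes of redox defence, 11 had a higher ratio and 1 a lower one (median 0.14), with 3 lower without sample 3 at 16 h. Sample medians were 0.45 to 0.55 at 16 h, -0.02 to 0.17 at 1 h and 0.59 to 0.78 in controls. Catalase (Cat), which breaks down hydrogen peroxide, rose 1.67-fold, with log2 ratios of 1.39, 1.51, 1.48 and 1.46 at 16 h against 0.76, 0.76, 0.74 and 0.62 at 1 h. The glutathione synthesis gene Gclm rose 1.58-fold and the thioredoxin reductase Txnrd1 1.34-fold. Of 20 cytosolic heat shock genes, 10 rose and none fell (median 0.28). The J-domain co-chaperones Dnaja1 and Dnajb1 rose 1.65-fold and 1.59-fold, and the constitutive chaperone Hspa8 1.48-fold, with Hspa8 turning in the analysis of partial variance.

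In the secretory pathway, 13 of 32 ER chaperones and folding enzymes had a higher ratio and 3 a lower one (median 0.15). Sample medians of their log2 ratios overlapped, with 0.26, 0.37, 0.44 and 0.19 at 16 h and 0.32, 0.19, 0.25 and 0.22 at 1 h. The disulfide isomerases Pdia3 and P4hb rose 1.71-fold and 1.29-fold, while their relative Txndc5 fell by 0.33 on the log2 scale. Cytosolic RNA was higher for 29 of these 32 genes, so that the higher ratios went with larger mRNA pools. Of 36 genes of vesicle transport from ER to Golgi, 16 (44.4%) rose and 5 fell (median 0.17). Sec24d, a cargo adaptor of COPII coats (chromosome 3 from 123267455 to 123365641), had log2 ratios of 1.63, 1.71, 1.67 and 1.57 at 16 h and of 0.77, 0.73, 0.76 and 0.80 at 1 h. The ratio of Sec24d rose 1.84-fold (log2 change 0.88 ± 0.0565 SE) with a cytosolic log2 change of 0.09, and its polysome RNA was 723 to 775 CPM at 16 h and 354 to 358 CPM at 1 h. The COPII coat gene Sec31a rose 1.47-fold and the COPI coat gene Copg1 1.38-fold. With a correction for coding length no member of this list fell.

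Other ER functions were less one-sided. Of 26 genes of ER-associated degradation 6 rose and 3 fell, Herpud2 rising 1.49-fold and Edem1, a lectin that directs misfolded glycoproteins, falling 1.35-fold. Of 43 genes of ER translocation and N-glycosylation 8 rose and 4 fell, with the signal recognition particle genes Srp72 (1.51-fold) and Srp68 (1.42-fold) higher and the oligosaccharyltransferase subunit Dad1 (1.39-fold) lower. The lower count was 2 without sample 4 at 16 h or sample 4 at 1 h and 1 without sample 1 at 1 h. Edem1 and Dad1 turned in the analysis of partial variance. Of 15 sensors and regulators of the unfolded protein response 2 rose, Xbp1 among them, and 2 fell, among them Mbtps1, the site-1 protease that activates ATF6 (1.26-fold).

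Of 41 targets of ATF4 and CHOP, 32 had more cytosolic RNA at 16 h, against 37.7% of all genes. In ratio 5 (12.2%) were higher and 5 (12.2%) lower, near the 14.5% and 13.6% of all genes. The higher count was 8 without sample 1 at 16 h or with the 16 libraries alone. Nupr1, a stress-induced chromatin protein, fell 1.68-fold, turning in the analysis of partial variance. The neutral amino acid transporter gene Slc1a5 fell 1.58-fold while Slc3a2, the heavy chain of several transporters, rose 1.42-fold. Of 20 cytosolic tRNA synthetases 7 rose and 1 fell (median 0.17), 4 rising without sample 3 at 1 h. Tars (1.42-fold) and Dars (1.53-fold), for threonine and aspartate, were higher and Lars, for leucine, lower (1.30-fold), Lars turning in the analysis of partial variance. Of 19 amino acid transporters 3 rose and 3 fell, and 2 rose and 2 fell both of 17 mitochondrial tRNA synthetases and of 15 enzymes of the serine and one-carbon pathways. Of the mitochondrial synthetases 1 fell without sample 1 or 3 at 16 h and none without any other sample, 4 fell with the correction for coding length, and 1 rose without sample 2 at 16 h. Of the serine and one-carbon enzymes none rose without sample 2 at 16 h or sample 3 or 4 at 1 h, and 1 without sample 4 at 16 h or sample 2 at 1 h. The serine and one-carbon median, -0.02, was 0.28 in the analysis of partial variance.

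Zinc finger genes carried the largest number of lower ratios among the lists. Of 344 tested genes with Zfp symbols, 83 (24.1%) had a lower ratio at 16 h and 13 (3.78%) a higher one, with a median log2 change of -0.23. Their median log2 ratio was -0.76, -0.56, -0.50 and -0.62 at 16 h and -0.32, -0.41, -0.37 and -0.41 at 1 h, without overlap. In controls it was -1.88 to -1.68, so these mRNAs lay between the control and the 1 h level at 16 h. Zfp608 fell 1.70-fold, Zfp462 1.71-fold, and Zfp207, a spindle assembly factor, rose 1.58-fold. Without sample 1 at 16 h 23 rose. Members share related zinc finger repeats, so reads of near-identical copies cannot be assigned with certainty.

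**Figure D4:**
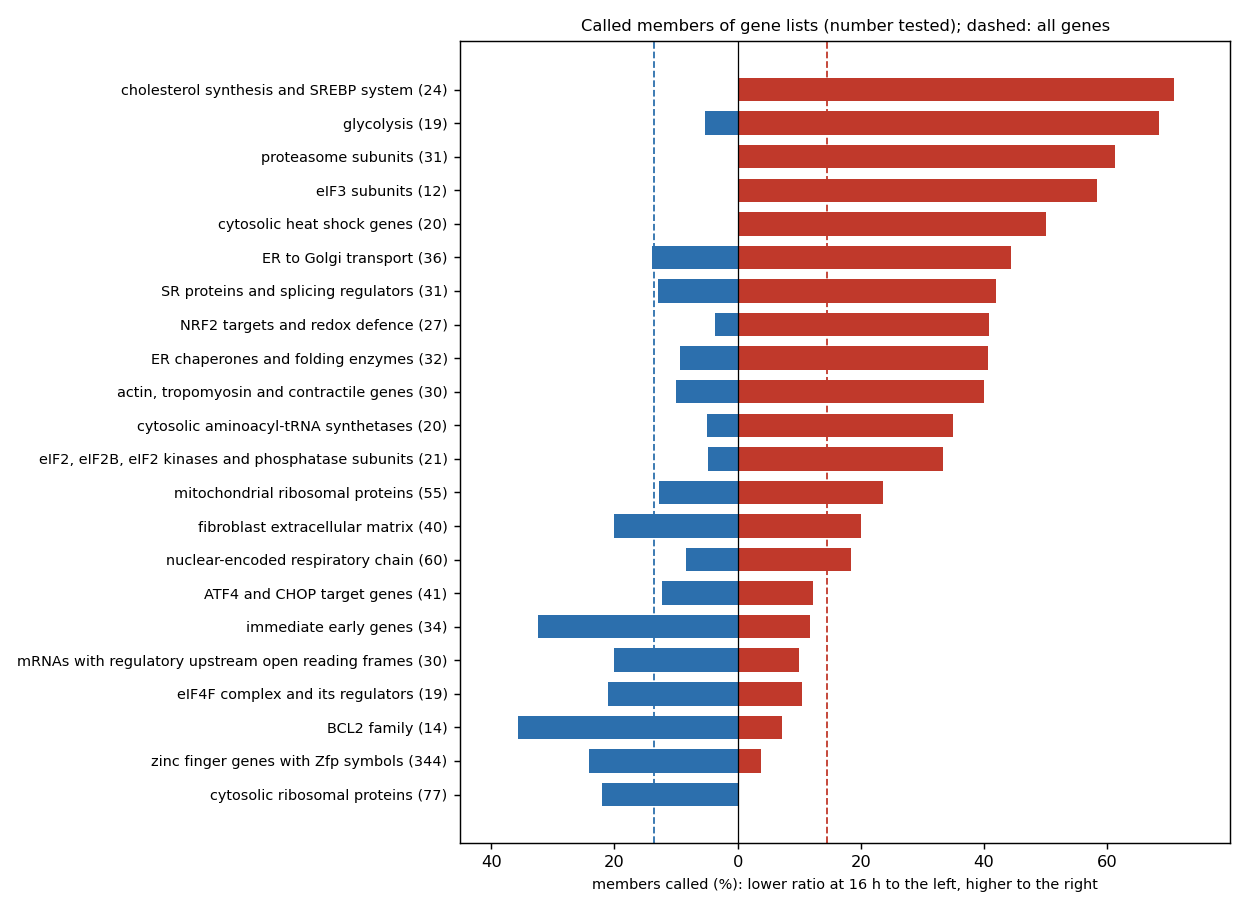
Share of tested members of each gene list (number tested in parentheses) called with a higher ratio at thapsigargin 16 h (red, right) or a lower one (blue, left) than at 1 h. Dashed lines mark the shares over all genes, 14.5% higher and 13.6% lower; cholesterol synthesis, glycolysis and proteasome subunits lie far to the right of the first, and cytosolic ribosomal proteins have no member with a higher ratio.

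Splicing regulators rose in part: 13 of 31 had a higher ratio and 4 a lower one (median 0.25). Among the called members the lower ratios of Son and Pnisr changed most. Son, a nuclear speckle protein, had log2 ratios of -0.88, -0.72, -0.61 and -0.75 at 16 h and of 0.38, 0.27, 0.35 and 0.36 at 1 h, a 2.12-fold fall. Pnisr, another speckle protein, fell 1.91-fold, and Srsf11 rose 1.49-fold. The control means of Son and Pnisr were -2.96 and -3.28, below both times of stress. Of 25 nucleoporins 6 rose, Rae1 by 1.48-fold, and 2 fell. The higher count was 12 without sample 1 at 16 h and 3 without sample 3 at 1 h, and the lower count was 1 without sample 1 or 4 at 16 h or sample 1 or 4 at 1 h.

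Immediate early genes, which answer a stimulus within minutes and fade, had more lower than higher ratios at 16 h. Of 34 tested, 11 (32.4%) fell and 4 rose (median -0.09), while cytosolic RNA of 29 was lower. Sample medians of their log2 ratios overlapped, with 0.47, 0.15, 0.11 and 0.34 at 16 h and 0.17, 0.51, 0.44 and 0.15 at 1 h. Egr1, a zinc finger transcription factor, fell 2.17-fold, the MAP kinase phosphatase Dusp1 1.66-fold and the antiproliferative gene Btg2 1.503-fold. Of 22 NF-kB and inflammatory genes 3 rose and 3 fell (median 0.10, and -1.47 in the analysis of partial variance), with the cytokine gene Csf1 1.35-fold higher, turning in the analysis of partial variance, and the chemokine gene Cxcl1 1.61-fold lower. Of 22 interferon response genes 5 rose and none fell (median 0.20). Irf9, a subunit of the interferon-stimulated transcription factor, rose 1.56-fold, the RNA sensor Ifih1 1.64-fold and Irf1 1.30-fold, Irf1 turning in the analysis of partial variance.

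Matrix and cytoskeletal mRNAs moved in both directions in ratio. Their cytosolic RNA was lower at 16 h for 36 of 39 and 28 of 30 genes tested in that RNA. Of 30 actin, tropomyosin and contractile genes 12 rose and 3 fell (median 0.15). Vinculin (Vcl), which links actin to adhesions, rose 1.62-fold and beta-actin (Actb) 1.48-fold, while the myosin light chain gene Myl6 fell 1.42-fold. Of 40 matrix genes 8 rose and 8 fell, with fibronectin (Fn1) 1.33-fold higher and Col6a3 (1.61-fold) and Thbs1 (1.37-fold) lower. The fibroblast markers, which include Fn1, had 2 of 12 higher and 2 lower, and 1 lower without sample 1 or 4 at 16 h or sample 1 or 4 at 1 h. Their median, 0.04, was -1.89 in the analysis of partial variance. In the analysis of partial variance Vcl, Actb and Fn1 turned, and the list medians were -1.33 for the contractile and -1.99 for the matrix genes.

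The BCL2 family of cell death regulators had 5 of 14 members lower and 1 higher, with a median log2 change of -0.32. The survival gene Bcl2l2 fell 1.67-fold and the pore-forming Bak1 1.47-fold, while Mcl1, a short-lived survival protein, rose 1.35-fold and turned in the analysis of partial variance. Sample medians of the family's log2 ratios overlapped, with -0.22, -0.50, -0.32 and -0.34 at 16 h and -0.24, -0.29, -0.04 and -0.27 at 1 h. The family's lower count was 3 without sample 2 at 16 h or sample 2 at 1 h. It was also 3 with the correction for coding length and with the 16 libraries alone. Of 33 genes of autophagy and lysosomes 7 rose and 7 fell, with Atg7, an E1-like enzyme of autophagy, 1.43-fold higher and Map1lc3b 1.29-fold lower. The lower count was 4 without sample 1 at 16 h or sample 4 at 1 h and 3 with the correction for coding length. With the 16 libraries alone 11 of these genes rose and 4 fell. Map1lc3b turned in the analysis of partial variance and did not pass with the correction for coding length. Of 27 mitosis genes 1 rose and 5 fell, among them the centromeric histone Cenpa (1.60-fold) and the kinesin Kif2c (1.39-fold). The number that rose was 6 without sample 1 at 16 h, 5 with the 16 libraries alone and 0 without sample 4 at 16 h or sample 1, 2 or 3 at 1 h. Of 34 DNA replication genes 3 rose and 4 fell, with the helicase subunit Mcm7 1.38-fold lower and Rpa1, a single-strand binding protein, 1.46-fold higher. Rpa1 turned in the analysis of partial variance, where the list median was -0.46, and 6 and 5 replication genes rose without sample 1 or sample 3 at 16 h.

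Coding length and upstream ATGs, features of the annotated mRNAs that the comparison did not use, went with the change in ratio across genes. A coding length was known for 12403 of the tested genes (98.7%). Among 586 genes with coding sequences under 400 nt, 30.9% had a lower ratio at 16 h and 0.512% a higher one, with a median log2 change of -0.254. Among 3945 genes of 1500 to 3000 nt, 9.79% had a lower and 20.5% a higher ratio, with a median of 0.083, and above 3000 nt 17.6% were lower and 9.30% higher. The median of the shortest class was -0.0295 after the correction for coding length, which removes such a trend by construction.

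The number of ATGs in the annotated leader made a gradient. Genes with none (5944) had a median log2 change of 0.075, with 18.9% higher and 9.51% lower. Genes with 1 ATG (2709) had -0.010, those with 2 or 3 (2210) -0.072, and those with 4 or more (1540) -0.119, with 7.14% higher and 20.4% lower. The order held in leaders of 200 to 400 nt, with 0.122, 0.002, -0.067 and -0.161 over the same classes. It also held in coding sequences of 1500 to 3000 nt, with 0.184, 0.073, -0.017 and -0.071. The median log2 ratios of these classes were 0.14, -5.3e-05, -0.076 and -0.13 at 16 h, against 0.034, -0.015, -0.012 and -0.0043 at 1 h. In controls they were 0.20, 0.0016, -0.099 and -0.31. Over all genes the classes thus stood apart in controls and at 16 h and close together at 1 h. This closeness did not hold within the strata. In leaders of 200 to 400 nt the medians at 1 h were 0.26, 0.036, -0.031 and 0.018. In coding sequences of 1500 to 3000 nt they were 0.33, 0.17, 0.087 and 0.14, so genes with no ATG stood highest at 1 h in both. The leader is that of 1 annotated transcript per gene, which need not be the one expressed here, and genes are not independent replicates, so these are descriptions without a test.

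**Figure D5:**
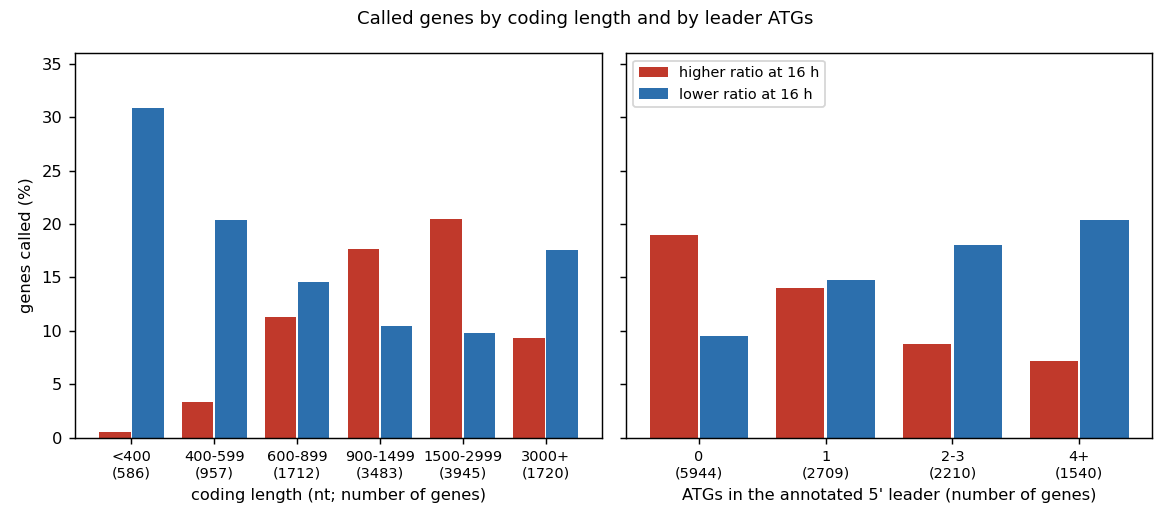
Share of genes (%) called with a higher (red) or lower (blue) ratio at thapsigargin 16 h than at 1 h, by coding length in nt (left) and by number of ATGs in the annotated leader (right), with the number of genes in parentheses. Lower calls are most frequent in the shortest coding sequences (30.9%) and grow with leader ATGs from 9.51% with none to 20.4% with 4 or more.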

How the data were processed

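Counts per gene symbol (20234 genes, 32 libraries) were used as the authors deposited them; the submitters' processing notes list HISAT, DESeq2 1.9.23 and the mm10 build. How reads were counted, with which strand setting and gene models, is not given in the sources used here. Genes that overlap, lie antisense or have close copies may thus share reads. Columns were matched to samples by description name.

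Translational efficiency was tested with edgeR 4.0.16 (R 4.3.3, limma 3.58.1) over all 32 libraries as an interaction between kind of RNA and condition, blocked by sample, filterByExpr (minimum count 10, minimum total 15), TMM scaling and Benjamini-Hochberg adjustment (threshold 0.05, 12 residual degrees of freedom). Each sample's RNA gave both of its libraries, per the labels, hence the block. Deviations of its 2 libraries had a median correlation of 0.0237. Polysome and cytosolic RNA were each fitted over 16 libraries. Log2 ratios per sample used a prior count of 2. Errors are SE of fits or SD over 4 samples. The fit was checked on simulated data. Alternatives were DESeq2 1.42.0, other scaling, no filter, other blocks, limma on ratios, analysis of partial variance, correction for coding length and leaving out each sample.

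Named genes were a panel of 14, the 10 highest and 10 lowest called changes (mean of at least 5 CPM, ratios that did not overlap, no clone-type symbols) and, of each list, called members with the smallest p; some items are not reported here. Members, lists and rules were chosen with earlier results of these data known. Coordinates, leaders and coding lengths are from GENCODE vM21 (GRCm38), 1 transcript per gene, by APPRIS rank and then length; 19987 symbols matched. Lists of nuclear-retained and mitochondrially encoded RNAs had no tested member.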

Additional observations from a re-analysis of the deposited data

Results flagged for a closer look

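In groups of 4 samples, a log2 ratio or a list's median log2 ratio was singled out when its gap to the nearest other sample exceeded Dixon's critical share of the group's range, which chance does in about 1 of 20 groups. Of 308 groups looked at, 5 (1.62%) met this. Rpl31 in sample 1 at 16 h (-1.78, against -1.59 to -1.57 in the others) had a gap of 0.919 of the range, and Trap1 in the same sample (1.67, against 1.57 to 1.58) one of 0.856. Atf4 in sample 2 at 1 h (0.583, against 0.649 to 0.66) had a gap of 0.86, and Bcl2l2 in sample 1 at 1 h (-0.698, against -0.636 to -0.626) one of 0.856. The median of the sensors and regulators of the unfolded protein response in sample 4 at 1 h (0.601, against 0.478 to 0.494) had a gap of 0.872.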

How the results depend on the processing

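The number of genes called was 2849 to 3703 when 1 sample was left out (1409 to 2088 higher, 1300 to 1722 lower) and 2975 to 3945 under the other alternatives except the analysis of partial variance. That analysis called 7463 genes, 4183 higher and 3280 lower, of which 1259 and 1647 by 2-fold or more. Changes of 2-fold or more numbered 22 higher and 49 lower with DESeq2, which gave no adjusted p for 1462 genes, and 58 higher with limma on ratios per sample; the cause was not tested. Calls in polysome RNA ranged from 9177 to 9910 and in cytosolic RNA from 9043 to 9731. Same-numbered samples of the 2 times had correlations of deviations between -0.315 and -0.130. Samples 1 and 4 at 16 h had positive correlations with samples 2 and 3 at 1 h (0.236, 0.246, 0.125 and 0.17). Samples 2 and 3 at 16 h had them with samples 1 and 4 at 1 h (0.218, 0.118, 0.28 and 0.188). Whether the numbers link samples of the 2 times was not tested. With a replicate block across conditions 3641 genes were called in translational efficiency, 9372 in polysome RNA and 9218 in cytosolic RNA, and without the pairing of the libraries of a sample 3945.

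Outside the analysis of partial variance, no named gene that had been called reversed; of those not called, Trib3, Chac1, Slc7a11 and Ppp1r15b changed sign near 0 in some fits. In that analysis 23 called genes reversed in sign. Of these, only Inmt, Steap4, C1s2, Dnm1, Edem1, Fn1 and Actb passed the threshold in it. Of the genes not called, Ddit3 (1.46), Ppp1r15b (-0.17) and Slc7a11 (0.19) changed sign. The cause was not tested beyond the nearness of its values to the polysome change. The log2 changes were 0.735 for Ppp1r15a, -5.35 for Inmt, -3.77 for Steap4, -0.65 for Ace, -1.07 for C1s2, -1.64 for Dnm1, 0.94 for Egr2, 0.23 for Nupr1, 0.053 for Lars, 1.39 for Edem1, and 0.19 for Dad1. They were -0.045 for Atp5a1, -0.42 for Hsd17b7, -0.13 for Sqle, -1.69 for Fn1, -1.47 for Vcl, -2.04 for Actb, -1.18 for Csf1, -0.11 for Rpa1, -0.27 for Hspa8, 0.68 for Map1lc3b, -0.25 for Mcl1 and -0.86 for Irf1. Another 10 called genes kept their sign in that analysis but did not pass. These were Slc1a5, Atp5b, Dnajb1, Mrpl19, Gpi1, Mcm7, Txndc5, Egr1, Thbs1 and Rpl31. List medians that changed sign were 0.086 for the eIF4F complex and its regulators, 0.21 for cytosolic ribosomal proteins, -0.45 for cholesterol synthesis, -1.99 for matrix, -1.33 for contractile genes, -0.46 for DNA replication, -0.069 for glycolysis, -1.47 for NF-kB and inflammatory genes, -1.89 for fibroblast markers and 0.28 for serine and one-carbon metabolism. The medians of genes with no leader ATG and with 4 or more were 0.16 and -0.083 in that analysis, and that of coding sequences under 400 nt was -0.055, alternatives chosen after seeing the data. Depth limits the ratios of mRNAs near or under 1 CPM at a time, such as Fos, Egr2, Inmt, Steap4, Avil, Aoc3 and Plekhg4.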
